A study of Mus musculus with 12 samples.

Results

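HCN channels are tetrameric cation channels that open when the membrane hyperpolarizes and that bind cAMP on their intracellular side. The genes described here are Hcn2, Hcn3 and Hcn4 of this family, together with Pex5l, which encodes their auxiliary subunit TRIP8b. A gene was taken through the probe set whose annotated symbol was exactly its own. Each of the 4 genes had 1 such probe set, so they were 4 of the 22961 probe sets tested and 4 of 19937 genes.

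Gene expression was measured in GFP-positive cells sorted by FACS from dissociated cortex of C57BL6 mice. Interneurons were taken at P10 (IN P10) and P0 (IN P0) from the cortex of Nkx2-1Cre;RCE:LoxP mice. Pyramidal cells were taken at P12 (Pyr P12) and P0 (Pyr P0) from the somatosensory cortex of NexCre;RCE:LoxP mice. RCE is a reporter that turns on GFP in cells with a history of Cre. Nkx2-1Cre is active in progenitors of the medial ganglionic eminence, which also give rise to oligodendrocyte precursors, and NexCre is active in young glutamatergic neurons. Each group held 3 arrays, which the labels call biological replicates and letter A, B and C, and the labels do not give the number of animals behind an array. The populations thus differ in Cre line and in the labelled region as well as in cell type, and the older pair also differs in age.

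The current through HCN channels, Ih, sets the resting potential, the input resistance and the way dendrites sum synaptic inputs. cAMP binding makes the channels open at less negative potentials, strongly in HCN2 and HCN4 and little in HCN3. TRIP8b binds the carboxyl end of HCN subunits, controls their traffic to the cell surface through its splice forms and opposes the action of cAMP. In cortex Ih is best known from the apical dendrites of deep-layer pyramidal cells, and it is also present in interneurons.

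The promoter windows of Hcn2 and Hcn4 are shown because no window was available for Hcn3 and Pex5l. They run from 250 bases before to 50 bases after the annotated start, on the plus strand of RefSeq's GRCm38.p6, at chr10:79716384-79716683 for Hcn2 and chr9:58822699-58822998 for Hcn4. 2 of the 4 genes had a window in the table. Capitals mark the letters GGGCGG on either strand, which read CCGCCC where the match lies on the other strand.
Hcn2: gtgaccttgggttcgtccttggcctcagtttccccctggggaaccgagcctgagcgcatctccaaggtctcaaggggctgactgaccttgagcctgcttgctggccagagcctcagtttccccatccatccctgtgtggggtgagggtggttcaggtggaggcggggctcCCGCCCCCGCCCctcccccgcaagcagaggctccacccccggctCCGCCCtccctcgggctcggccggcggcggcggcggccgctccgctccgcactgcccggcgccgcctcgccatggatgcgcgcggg
Hcn4: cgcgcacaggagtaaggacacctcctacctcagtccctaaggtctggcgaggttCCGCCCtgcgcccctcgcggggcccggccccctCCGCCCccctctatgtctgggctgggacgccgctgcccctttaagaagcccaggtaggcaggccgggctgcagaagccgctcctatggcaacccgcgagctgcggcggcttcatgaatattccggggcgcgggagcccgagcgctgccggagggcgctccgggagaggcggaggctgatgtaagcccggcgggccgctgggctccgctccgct
The Hcn2 window held 3 matches and 72.3% G and C, and the Hcn4 window held 2 matches and 71.7% G and C. Of 32851 windows of the same length, 35.7% held the motif and the median G and C content was 52.7%. These matches describe the letters only.

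Levels are log2 values from robust multiarray averaging (RMA), and 1 unit is a doubling. They are set side by side between groups but not between genes, because probe sets differ in affinity. Differences were tested with limma over all 12 arrays, and the adjusted p is corrected over the 22961 probe sets. A gene passed the test at an adjusted p under 0.05, and it was called when its fold change was also over 2. The number of arrays limits the precision. The p-values set each difference against the spread between arrays within groups, which limma estimates over all 4 groups and moderates over probe sets. All 4 genes lay above background on all 12 arrays, where background is the level below which 95% of the probe sets for smell and pheromone receptors fell, 7.13 to 7.45 over the arrays.

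The sorted populations carried their own markers. The mean level of 7 pan-interneuron genes was 11.9 to 12.0 in IN P10 and 12.0 to 12.2 in IN P0, against 7.68 to 7.81 in Pyr P12 and 8.73 to 9.21 in Pyr P0. The mean level of 9 pyramidal genes was 8.56 to 8.64 in IN P10 and 8.97 to 9.48 in IN P0, against 11.77 to 11.78 in Pyr P12 and 11.17 to 11.22 in Pyr P0. Oligodendrocyte genes were present in the interneuron samples. The 8 precursor genes averaged 9.76 to 10.45 in IN P10 and 9.55 to 9.76 in IN P0, against 7.52 to 7.69 in Pyr P12 and 7.46 to 7.77 in Pyr P0. These 8 did not move together with age in interneurons. Bcas1, Enpp6 and Gpr17 were called higher, and Cspg4 and Pdgfra were called lower. Of all probe sets, 4.19% were called higher and 2.85% lower there. The 9 genes of myelinating cells averaged 8.69 to 9.01 in IN P10 and 7.79 to 7.86 in IN P0, against 7.58 to 7.68 in Pyr P12 and 7.44 to 7.52 in Pyr P0. Over all 12 arrays, the lists of astrocyte, microglial and vascular genes averaged 7.30 to 7.95, 7.06 to 7.44 and 7.26 to 7.44 in that order. A list gene counted as above background in a group when at least 1 of the 3 arrays was above it. Of the 7 astrocyte genes 5 were above background in each group by this rule and 2, Aqp4 and Gja1, in none. For Gfap in Pyr P12 and for Aldh1l1 in IN P0 and in Pyr P0, this rested on 1 array. With age, Aldoc was called higher in interneurons (1.29) and Aldh1l1 in pyramidal cells (1.29). In bulk RNA of sorted cells, fewer cells of a type and less RNA per cell cannot be told apart.

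**Figure D1:**
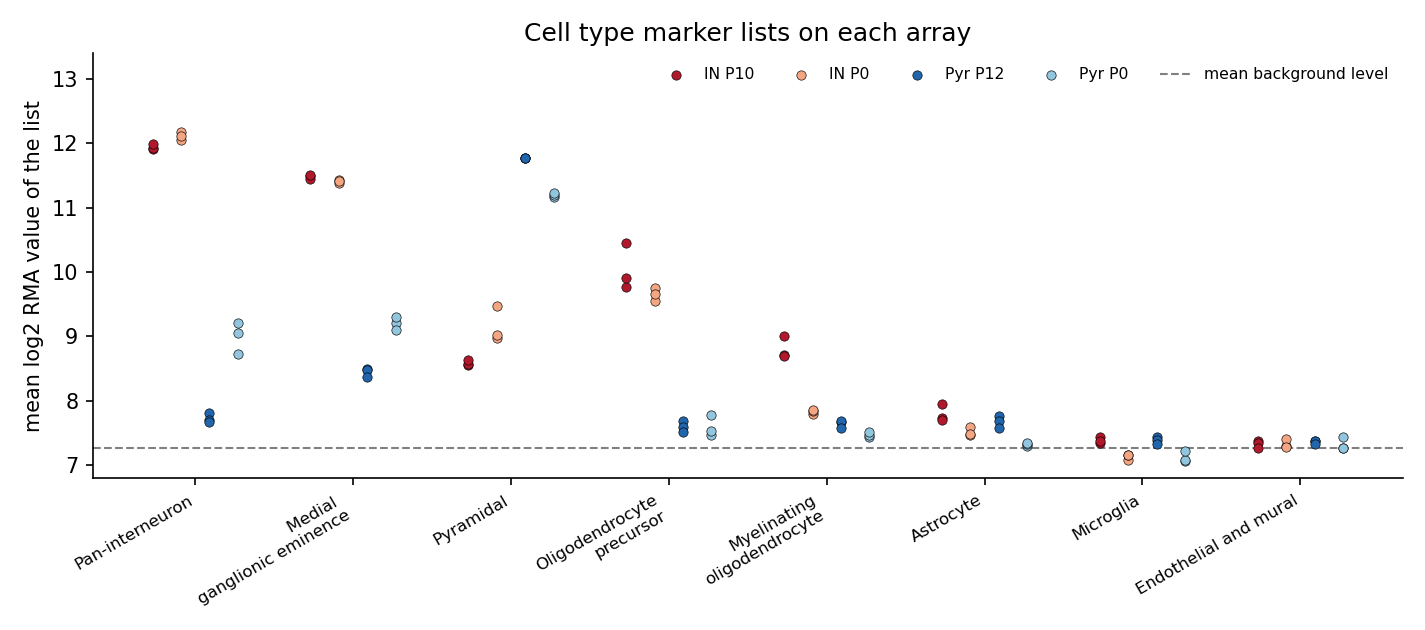
Mean log2 level of each cell type marker list on each array, by group, with 1 point per array and a dashed line at the mean background level. The pan-interneuron list lay at 11.9 or above on all interneuron arrays and at 9.21 or below on all pyramidal arrays, and the oligodendrocyte precursor list reached 10.45 in IN P10.

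Hcn2, a cAMP-responsive subunit, was higher at the older age in both populations. It measured 11.06, 11.13 and 11.21 in IN P10, against 9.53, 9.53 and 9.44 in IN P0. Among pyramidal cells it measured 10.60, 10.63 and 10.66 in Pyr P12, against 9.34, 9.35 and 9.34 in Pyr P0. No array of an older group reached down to its P0 group, and the order of the groups was IN P10, Pyr P12, IN P0 and Pyr P0 with no overlap between neighbours. The smallest gap, 0.09, lay between IN P0 and Pyr P0.

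Hcn2 rose 3.11-fold with age in interneurons (log2 difference 1.64, SE 0.05, adjusted p = 4.23e-11). In pyramidal cells it rose 2.43-fold (log2 difference 1.28, SE 0.05, adjusted p = 1.56e-10). A log2 difference as large in either direction was seen in 1.76% of the probe sets tested for the interneuron comparison and in 5.53% for the pyramidal comparison. The age change was larger in interneurons by 0.35 (95% interval 0.19 to 0.51, adjusted p = 0.00226). Between the older groups, Hcn2 was 1.42-fold higher in interneurons (adjusted p = 2.66e-06), which did not reach the 2-fold call. At P0 the difference was 0.16 on the log2 scale (95% interval 0.05 to 0.27, adjusted p = 0.0432), and over the alternatives its adjusted p ran between 0.0135 and 0.140.

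Oligodendrocyte genes were at their highest in array A of IN P10, at 10.45 for the precursor list and 9.01 for the myelinating list, against 9.76 and 9.91 and against 8.70 and 8.69 on arrays B and C. On that array Hcn2, Hcn3, Hcn4 and Pex5l each had their lowest value of the 3 IN P10 arrays. Without it the log2 difference of Hcn2 between IN P10 and IN P0 was 1.67. Of the 9 genes of myelinating cells, 7 were above background in IN P10 and 2, Ermn and Opalin, were not in any group. With age in interneurons 8 of the 9 passed as higher, Opalin among them, and Cldn11, Cnp and Mag were called. Between IN P10 and Pyr P12, 9 of 9 passed as higher, which includes Ermn and Opalin below background. Of all probe sets, 22.3% passed as higher with age in interneurons and 16.1% in IN P10 against Pyr P12. The part of oligodendrocyte RNA in the interneuron values of the 4 genes was not tested.

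Hcn3, the subunit that responds least to cAMP, moved in opposite directions in the 2 populations. It measured 10.22, 10.26 and 10.23 in IN P10, against 9.69, 9.68 and 9.45 in IN P0. In pyramidal cells it measured 9.28, 9.46 and 9.46 in Pyr P12, against 9.58, 9.73 and 9.72 in Pyr P0. IN P10 stood above all other arrays, whereas the values of IN P0 overlapped those of both pyramidal groups.

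In interneurons Hcn3 rose 1.55-fold with age (log2 difference 0.63, SE 0.07, adjusted p = 7.78e-06). In pyramidal cells it fell by 0.27 on the log2 scale (adjusted p = 0.00694). A log2 difference as large in either direction was seen in 17.0% of probe sets for the interneuron comparison. For the pyramidal comparison it was seen in 40.8%, so the fall was of a common size. The difference between these changes was 0.90 (95% interval 0.68 to 1.13, adjusted p = 2.03e-05). At the older ages Hcn3 was 1.79-fold higher in interneurons (log2 difference 0.84, adjusted p = 7.32e-07). At P0 the difference was -0.07, with a 95% interval of -0.23 to 0.09, and did not pass the test (adjusted p = 0.664). It came to 0.014 without replicate C of IN P0. None of the Hcn3 differences reached the 2-fold call.

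Hcn4, the slowly gating subunit best known from cardiac pacemaker cells, was highest in pyramidal cells at P0. It measured 8.97, 9.03 and 9.03 in IN P10, against 9.37, 9.54 and 9.61 in IN P0. The pyramidal values were 9.48, 9.57 and 9.80 in Pyr P12, against 10.60, 10.44 and 10.71 in Pyr P0. Pyr P0 stood above and IN P10 below all other arrays, and the values of Pyr P12 and IN P0 overlapped.

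Hcn4 fell with age by 0.49 on the log2 scale in interneurons (SE 0.09, adjusted p = 0.000418). A difference as large in either direction was seen there in 23.3% of probe sets, and in 9.72% for the pyramidal age change. In pyramidal cells it fell by 0.96 (95% interval -1.16 to -0.77, adjusted p = 7.48e-07), which was a 1.95-fold difference and just short of the call. It passed 2-fold without replicate B of Pyr P0 (-1.04), without replicate C of Pyr P12 (-1.05) and after a further quantile normalization (-1.03). The 2 age changes differed by 0.47 (95% interval 0.19 to 0.75, adjusted p = 0.0128). At P0 Hcn4 was 2.11-fold lower in interneurons than in pyramidal cells (log2 difference -1.08, SE 0.09, adjusted p = 7.17e-07) and was called, and a difference as large was seen in 3.20% of probe sets. At the older ages it was 1.52-fold lower in interneurons (adjusted p = 9.82e-05).

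**Figure D2:**
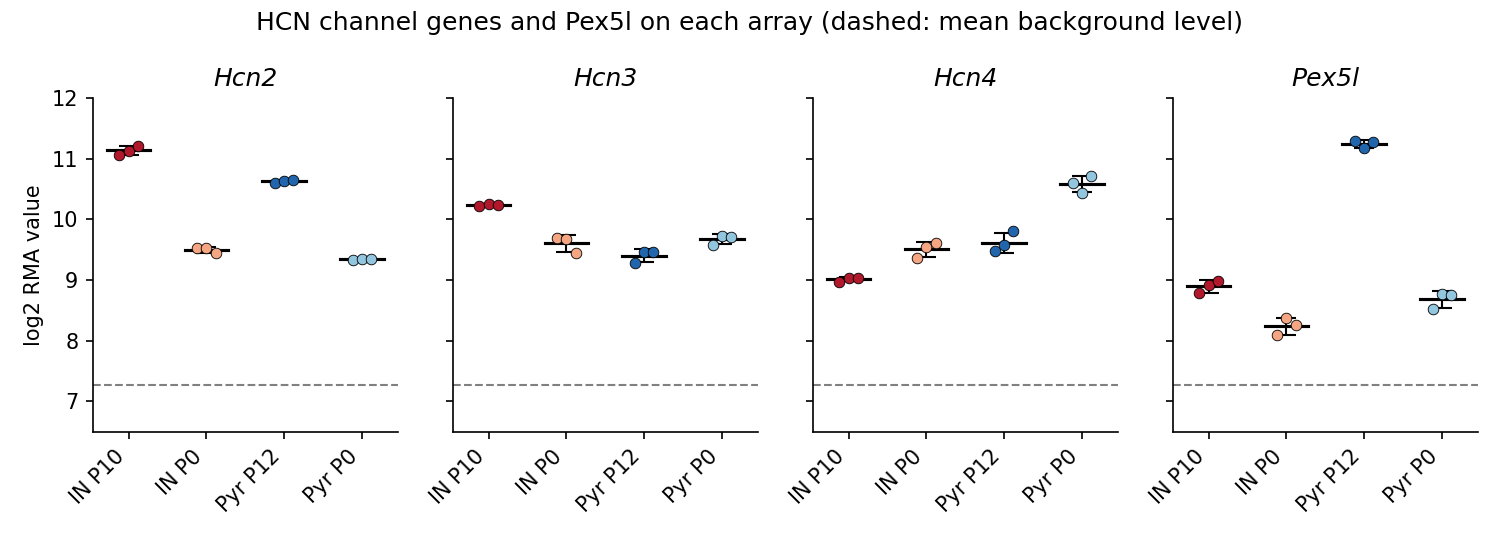
Log2 RMA level of Hcn2, Hcn3, Hcn4 and Pex5l on each of the 12 arrays, by group, with the group mean and SD (n = 3) and a dashed line at the mean background level. Hcn2 was highest in IN P10, Hcn4 in Pyr P0 and Pex5l in Pyr P12, where its 3 arrays lay at 11.17 to 11.29.

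Pex5l, the gene of TRIP8b, had the widest range of the 4 genes, with group means spanning 3.01 on the log2 scale. It measured 8.79, 8.91 and 8.98 in IN P10, against 8.09, 8.37 and 8.26 in IN P0. The pyramidal values were 11.29, 11.17 and 11.28 in Pyr P12, against 8.52, 8.77 and 8.75 in Pyr P0. The 3 arrays of Pyr P12 stood far above the rest. IN P10 and Pyr P0 were neighbours in the order, with a gap of 0.01 between their nearest arrays.

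Pex5l rose 5.92-fold with age in pyramidal cells (log2 difference 2.57, SE 0.09, adjusted p = 2.81e-11). A difference as large was seen in 0.797% of probe sets. In interneurons it rose 1.57-fold (log2 difference 0.65, SE 0.09, adjusted p = 2.05e-05), and 16.1% of probe sets differed as much. The age change of interneurons minus that of pyramidal cells was -1.91 (SE 0.12, 95% interval -2.17 to -1.65, adjusted p = 8.04e-08) and was called. Between the older groups Pex5l was 5.11-fold lower in interneurons (log2 difference -2.35, adjusted p = 1.01e-10). At P0 it was 1.36-fold lower in interneurons (log2 difference -0.44, adjusted p = 0.00164).

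Pyramidal markers were not uniform over the interneuron arrays. Replicate B of IN P0 had the highest mean level of the pyramidal list, 9.48, and the highest Pex5l of its group, whereas its Hcn4 lay between those of replicates A and C. In IN P10, 7 of the 9 pyramidal genes were above background and 2, Neurod6 and Slc17a6, were not on any array. With age in interneurons 2 of the 9, Camk2a (log2 difference 2.12) and Nrgn (2.29), were called higher, and 3, Neurod2, Neurod6 and Tbr1, were called lower. Of all probe sets, 4.19% were called higher there and 2.85% lower. The part of pyramidal RNA in the interneuron values of Hcn4 and Pex5l was not tested. Interneuron markers also differed between the pyramidal groups. With age in pyramidal cells 5 of the 7 pan-interneuron genes, Dlx1, Dlx2, Dlx5, Gad1 and Gad2, were called lower and 0 higher. Of all probe sets, 3.48% were called lower there and 5.68% higher. The part of interneuron RNA in the pyramidal values of the 4 genes was not tested.

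**Figure D3:**
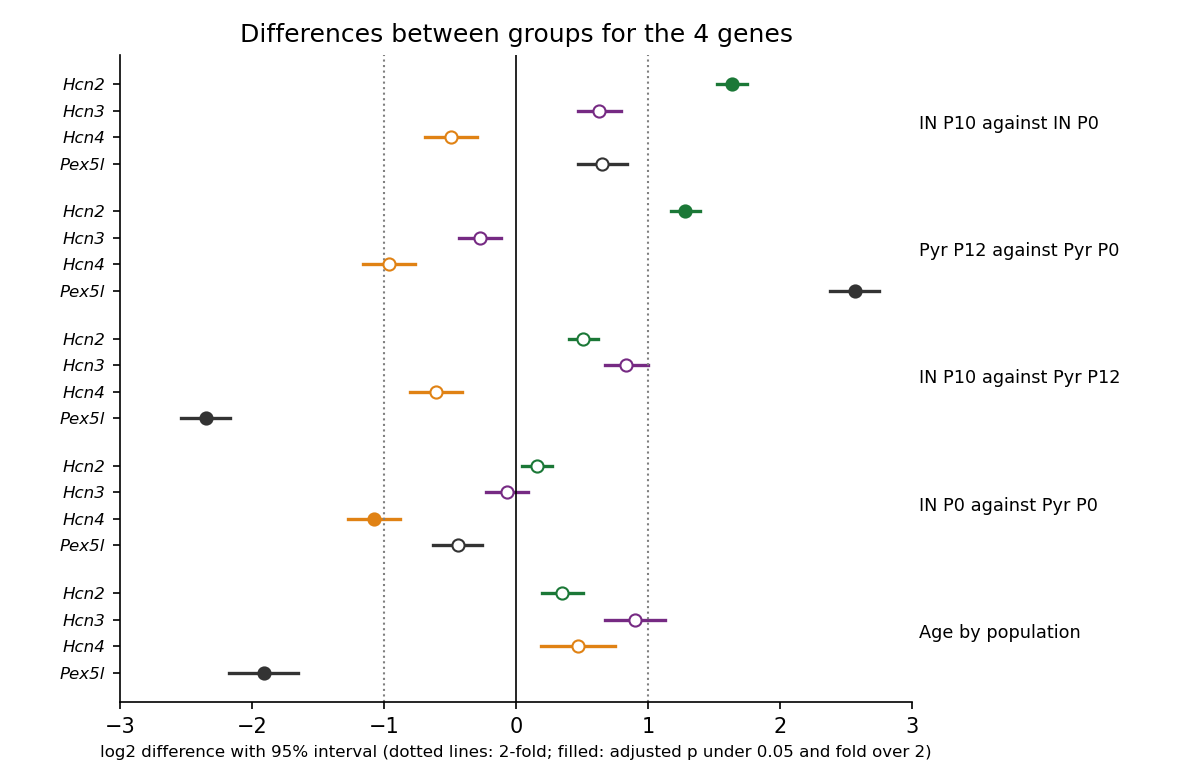
Log2 difference of each gene in the 4 comparisons between groups and in the difference between the 2 age changes (age by population, that of interneurons minus that of pyramidal cells), with 95% intervals from limma. Dotted lines mark a 2-fold difference and filled points mark calls. Hcn2 lay beyond 2-fold in both age comparisons, Hcn4 only in the comparison at P0 and Pex5l in the pyramidal age comparison, the older pair and the difference between age changes.

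Across the 4 genes, the counts read as follows against all probe sets. Between IN P10 and IN P0, 1 of 4 was called higher and 0 lower, where 4.19% and 2.85% of probe sets were called. With the adjusted p alone, 3 passed as higher and 1 as lower, against 22.3% and 23.1% of probe sets, or 45.5% in either direction. Between Pyr P12 and Pyr P0, 2 of 4 were called higher and 0 lower, against 5.68% and 3.48%. There 2 passed as higher and 2 as lower by the adjusted p alone, against 33.0% and 21.7%, or 54.7% in either direction. Passing without a fold threshold was thus common in both age comparisons.

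Between IN P10 and Pyr P12, 0 of 4 were called higher and 1 lower, against 2.65% and 2.91%. There 2 passed as higher and 2 as lower, against 16.1% and 30.4%, or 46.6% in either direction. Between IN P0 and Pyr P0, 0 were called higher and 1 lower, against 1.9% and 1.74%, and 1 passed as higher and 2 as lower, against 11.1% and 11.3%, or 22.4% in either direction. For the difference between age changes, 0 were called higher and 1 lower, against 2.24% and 2.63%, and 3 passed as higher and 1 as lower, against 11.8% and 20.3%, or 32.1% in either direction. The comparisons share groups, so these counts are not independent of each other.

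The same genes passed by the adjusted p and had groups without overlap in each comparison between groups. Such a lack of overlap was seen in 28.8% of probe sets for higher and 28.3% for lower values in IN P10 against IN P0, and in 35.6% and 22.5% in Pyr P12 against Pyr P0. It was seen in 19.8% and 39.2% in IN P10 against Pyr P12, and in 16.2% and 16.3% in IN P0 against Pyr P0.

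Of the other proteins known to bind or traffic HCN channels, 8 genes were measured. With age in interneurons 0 were called, and 3 passed as lower, where 23.1% of all probe sets did. Among the 3 was Rab8b, the small GTPase for which TRIP8b is named (log2 difference -0.49, adjusted p = 0.000268). With age in pyramidal cells 1 was called higher and 1 lower, against 5.68% and 3.48% of all probe sets. The median of the list was -0.14 there, against 0.06 over all probe sets. The gene called lower was Flna, which encodes the actin crosslinker filamin A (-1.09, adjusted p = 1.14e-08). Rab8b also passed as lower there (-0.69, adjusted p = 1.14e-05). Lrmp was not above background in any group, and Kcne2 was not in IN P10 and Pyr P12.

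The gene called higher was Grasp, which encodes the scaffold protein tamalin. It measured 8.61, 8.78 and 8.83 in IN P10, against 8.65, 8.87 and 8.60 in IN P0. The pyramidal values were 11.05, 11.23 and 11.09 in Pyr P12, against 9.00, 9.14 and 9.09 in Pyr P0. Pyr P12 stood apart, as it did for Pex5l. The log2 difference with age was 2.05 in pyramidal cells (adjusted p = 1.30e-10) and 0.03 in interneurons, and the difference between these was -2.02 (adjusted p = 3.09e-08). Between IN P10 and Pyr P12 the log2 difference of Grasp was -2.38 (adjusted p = 5.42e-11).

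Adenylyl cyclases make the cAMP that HCN channels bind. Of 10 measured, 0 were called lower with age in either population, while 2 were called higher in interneurons and 3 in pyramidal cells. Of all probe sets, 4.19% and 5.68% were called higher in these comparisons. The median log2 difference of the list was 0.37 in interneurons and 0.53 in pyramidal cells, against 0.00 and 0.06 over all probe sets. Adcy2 rose in both populations, by 1.53 in interneurons (adjusted p = 6.52e-10) and by 1.49 in pyramidal cells (adjusted p = 4.02e-10). Adcy8, a cyclase stimulated by calcium and calmodulin, rose by 1.34 in interneurons (adjusted p = 3.27e-09) and by 2.13 in pyramidal cells (adjusted p = 2.48e-11). Adcy8 was also higher in interneurons at P0 (1.46, adjusted p = 2.87e-09), and Adcy9 was lower in interneurons at the older ages (-1.18, adjusted p = 3.80e-08). Adcy10 was not above background in any group.

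Phosphodiesterases that act on cAMP moved in both directions. Of 16 genes, the age comparison of interneurons called 3 higher and 2 lower, and that of pyramidal cells 4 higher and 1 lower. Of all probe sets, the first called 4.19% higher and 2.85% lower, and the second 5.68% and 3.48%. Pde8b, a cAMP-specific enzyme, measured 9.63, 9.53 and 9.67 in IN P10, against 7.67, 7.80 and 7.87 in IN P0. It measured 10.99, 11.19 and 11.04 in Pyr P12, against 7.87, 7.85 and 7.73 in Pyr P0. Its groups did not overlap between ages in either population, and its log2 difference was 1.83 in interneurons (adjusted p = 2.66e-10) and 3.25 in pyramidal cells (adjusted p = 8.84e-13). Pde1a, which calcium and calmodulin activate, rose by 2.04 in interneurons (adjusted p = 1.08e-10) and by 2.58 in pyramidal cells (adjusted p = 5.86e-12). Pde3b fell in both, with log2 differences of -1.48 in interneurons (adjusted p = 3.20e-07) and -1.30 in pyramidal cells (adjusted p = 8.93e-07). Pde7a also fell in both, with log2 differences of -1.17 in interneurons (adjusted p = 1.92e-08) and -0.92 in pyramidal cells (adjusted p = 1.47e-07), of which the second did not reach the 2-fold call.

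Pde7b, another cAMP-specific enzyme, measured 8.09, 7.87 and 8.16 in IN P10, against 8.05, 8.20 and 8.05 in IN P0. In pyramidal cells it measured 10.32, 10.71 and 10.40 in Pyr P12, against 7.71, 7.74 and 7.51 in Pyr P0. The interneuron groups overlapped and the pyramidal groups did not. The pyramidal log2 difference was 2.83 (adjusted p = 6.90e-11) and that of interneurons was -0.06. The difference between the age changes was called lower for Pde7b (-2.89, adjusted p = 1.30e-08), Pde8b (-1.42, adjusted p = 2.56e-07) and Pde4b (-1.05, adjusted p = 5.46e-06), and for 0 of 16 it was called higher. After a further quantile normalization Pde4b was at -0.99 and no longer called. In IN P10 against Pyr P12, 4 of 16 were called lower and 0 higher, among them Pde7b (-2.44, adjusted p = 4.76e-10) and Pde4b (-1.65, adjusted p = 8.42e-10). Of all probe sets, 2.91% were called lower in that comparison and 2.63% in the difference between age changes.

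Cyclic nucleotide-gated channels and peroxisomal import proteins were also counted. Of 6 cyclic nucleotide-gated channel genes measured, 0 were called in any comparison, and 5 were not above background in any group. By the adjusted p alone, 3 of the 6 passed as higher and 1 as lower with age in pyramidal cells. In interneurons 0 passed. The 3 were among the genes not above background, and the 1 was the gene above it. Of all probe sets, 33.0% passed as higher and 21.7% as lower with age in pyramidal cells. Pex5, the receptor that carries proteins into peroxisomes and that Pex5l resembles, had log2 differences of -0.00 with age in interneurons (adjusted p = 0.992) and -0.02 in pyramidal cells (adjusted p = 0.732). Of 11 peroxisomal import genes, 0 were called in any comparison, 7 passed as higher with age in pyramidal cells and 3 passed as higher in interneurons. Of all probe sets, 33.0% and 22.3% passed as higher in these comparisons.

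**Figure D4:**
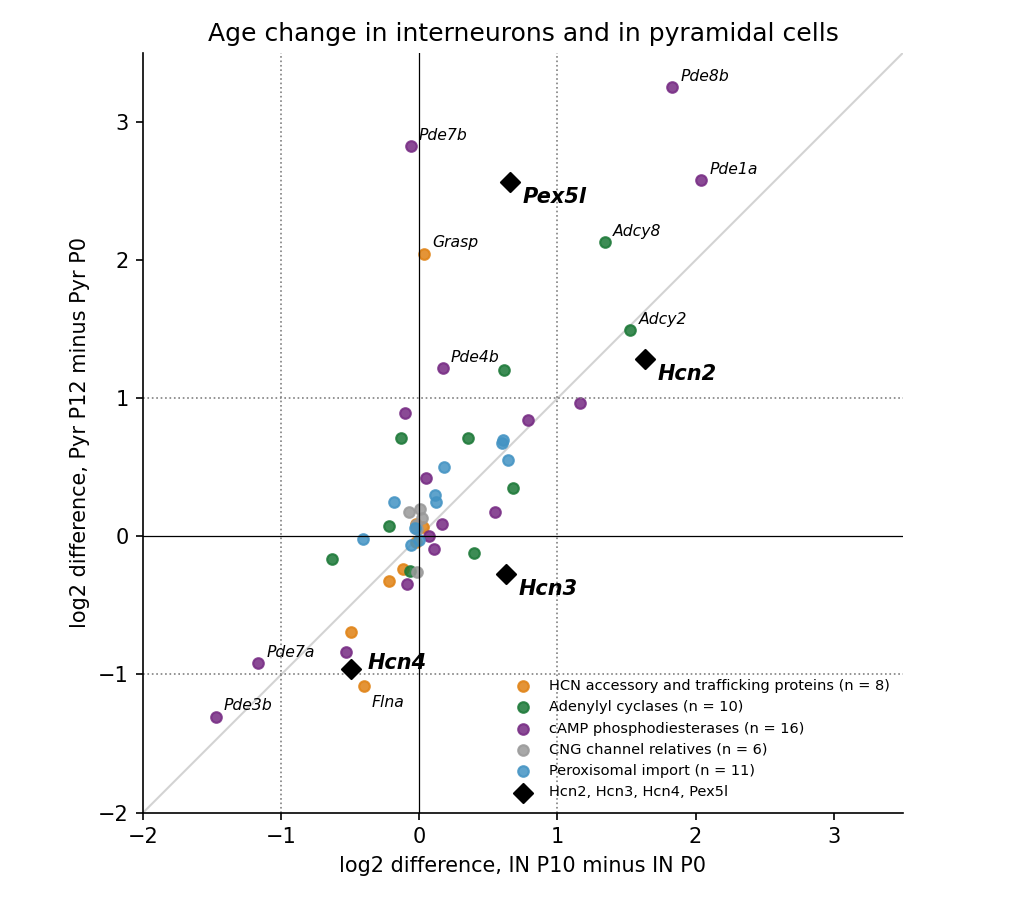
Log2 difference with age in interneurons (IN P10 minus IN P0, horizontal axis) against that in pyramidal cells (Pyr P12 minus Pyr P0, vertical axis) for the 4 genes and the 5 lists, with 1 point per gene. Dotted lines mark 2-fold and the grey diagonal marks equal changes. Pex5l, Grasp and Pde7b lay high on the pyramidal axis, at 2.57, 2.05 and 2.83, and between -0.06 and 0.65 on the interneuron axis.

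The 4 genes did not share 1 pattern over the 12 arrays. Pearson's r was 0.49 between Hcn2 and Hcn3, 0.49 between Hcn2 and Pex5l, and -0.75 between Hcn2 and Hcn4. It was -0.47 between Hcn3 and Hcn4, -0.45 between Hcn3 and Pex5l, and -0.08 between Hcn4 and Pex5l. These values describe 12 arrays that fall into 4 groups and share their group means.

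The genes whose levels were most like each of the 4 were sought among the 3345 or 3346 candidate genes per gene that were above background and spanned at least 1 on the log2 scale between groups. The 12 arrays share the means of 4 groups, so a high r among so many candidates was largely fixed in advance. The 5 genes with the highest r were taken. For Hcn2 they were Ache, which encodes acetylcholinesterase, Cend1, Sirt3, Chga and Slc35f3, with r of 0.996 to 0.997 over the 12 arrays. Ache averaged 11.75 in IN P10 and 9.10 in IN P0, and 11.07 in Pyr P12 and 8.80 in Pyr P0. For Hcn3 they were Vegfb, Fgf11, Rtl9, the potassium channel gene Kcnh2 and Fam131c, with r of 0.957 to 0.974. Kcnh2 averaged 10.53 in IN P10 and 9.46 in IN P0, and 9.01 in Pyr P12 and 9.29 in Pyr P0.

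For Hcn4 the most alike were Tle4, a transcriptional corepressor gene expressed in deep-layer cortical neurons, a probe set annotated to Mir128-2, Cldn20, 4922502B01Rik and the potassium channel gene Kcnk10, with r of 0.979 to 0.986. Tle4 averaged 9.62 in IN P10 and 10.14 in IN P0, and 10.52 in Pyr P12 and 11.80 in Pyr P0. For Pex5l they were Zdhhc8, a palmitoyltransferase gene, the potassium channel gene Kcns1, Rasl10a, Nat14 and Fam131a, with r of 0.994 to 0.996. Kcns1 averaged 9.23 in IN P10 and 8.79 in IN P0, and 10.86 in Pyr P12 and 8.99 in Pyr P0.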

How the data were processed

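FACS-sorted cortical cells were profiled on 12 Affymetrix mouse gene arrays. The log2 values were deposited by the authors after RMA, which corrects background, quantile-normalizes arrays and summarizes probe sets; software versions and genome build are not given in the sources used here. Of 28192 probe sets, 21640 carried 1 symbol, 1321 carried several and were tested unnamed, and 5231 without a symbol were left out. One limma fit (version 3.58.1, in R 4.3.3) took all 4 groups, with 8 residual degrees of freedom, and p-values were Benjamini-Hochberg adjusted over 22961 probe sets. A call required a fold over 2 and an adjusted p below 0.05. SAM, the test of the study's methods, was an alternative, and the fit was tested on simulated data.

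Background was the 95th percentile of 1208 receptor probe sets per array. Named genes were the 4 members, the list genes called in the difference between age changes, the 2 most changed called genes per direction of each list and comparison, and 5 correlated genes per member; Rab8b, Pex5, Adcy10, Lrmp, Kcne2 and the single marker genes were added after their values were seen. The members and lists were chosen with earlier results of these data known. Promoter windows came from RefSeq (GRCm38.p6). Deviations from the group means did not settle whether same-letter replicates are paired.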

Additional observations from a re-analysis of the deposited data

Results flagged for a closer look

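The change with age differed between interneurons and pyramidal cells for all 4 genes, by limma's test of that difference. It was 0.35 for Hcn2 (adjusted p = 0.00226), where both populations rose. It was 0.90 for Hcn3 (adjusted p = 2.03e-05), where interneurons rose and pyramidal cells fell. It was 0.47 for Hcn4 (adjusted p = 0.0128), where both fell. It was -1.91 for Pex5l (adjusted p = 8.04e-08), where both rose. Of all probe sets, 32.1% passed this test. The older ages were P10 and P12, so age and population cannot be told apart in this difference. Groups of 3 arrays were too small to look for single arrays that stand apart.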

How the results depend on the processing

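Over 24 alternatives, 449 of 472 values for the 20 differences of the 4 genes kept their direction and side of the threshold. Of the rest, 22 passed it anew, 0 fell below it and 1 changed direction. Many alternatives change only the test, the probe sets tested or the threshold, or leave out an array of another group. These leave the log2 difference as it was, so much of this count was fixed in advance. A looser fold threshold can only add calls. With no fold threshold, further differences were called. For Hcn2 these were 0.51 for IN P10 against Pyr P12, 0.16 at P0 and 0.35 between age changes. For Hcn3 they were 0.63 with age in interneurons, -0.27 with age in pyramidal cells, 0.84 for the older pair and 0.90 between age changes. For Hcn4 they were -0.49 and -0.96 with age in interneurons and pyramidal cells, -0.61 for the older pair and 0.47 between age changes, and for Pex5l 0.65 with age in interneurons and -0.44 at P0. With a fold over 1.5, the Hcn3 values 0.63, 0.84 and 0.90, the Hcn4 values -0.96 and -0.61 and the Pex5l value 0.65 were called. After a further quantile normalization Hcn4 in Pyr P12 against Pyr P0 was -1.03 and called, and leaving out single arrays gave -1.05 to -0.90. Hcn3 at P0 ran from -0.11 to 0.014 when single arrays were left out, and turned positive without replicate C of IN P0 (0.014, adjusted p = 0.953).

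By the adjusted p alone, read under each alternative after seeing the data, 417 of 432 readings were kept, 14 were lost and 1 changed direction. Hcn2 at P0 lost its pass at 0.16 with the 2 groups alone (adjusted p = 0.0805), limma-trend with robust eBayes (adjusted p = 0.0851), the replicate block (adjusted p = 0.0624), the filter on dim probe sets (adjusted p = 0.0505) and an adjusted p under 0.01, and at 0.15 with arrays centred on their medians (adjusted p = 0.0860). It was also lost without 7 of the 12 arrays taken singly, namely A or B of IN P0, B of IN P10, A, B or C of Pyr P0 and A of Pyr P12, with values between 0.14 and 0.19 over all 12. The difference between the age changes of Hcn4, 0.47, was lost at an adjusted p under 0.01. Whether the replicate letters pair the samples was not settled. Deviations from the group means correlated above 0.1 in 6 of 18 same-letter pairs, with r from -0.18 to 0.19. The 36 other pairs ran from -0.26 to 0.30. For 6 of the 12 arrays the highest mean r was with their own letter. The replicate block changed no other pass of the 4 genes.

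Among all probe sets passing by the adjusted p, the share that was higher moved with a further quantile normalization to 50.1% against 60.3% as deposited for pyramidal age, to 46.4% against 34.7% for the older pair and to 46.9% against 36.7% between age changes. Pde4b between age changes was -0.99 there and no longer called. List counts moved over 1.5 times only with another fold threshold. SAM and the 2 groups alone gave no value for the difference between age changes. None of Hcn2, Hcn3, Hcn4 and Pex5l had a second probe set to try.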
